A study of Mus musculus with 3 samples.

Results

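The interleukin-6 cytokines signal through receptors built from a small set of subunits, and 9 genes of this family were described in Ret-positive cells of the mouse embryonic dorsal root ganglion: 6 receptor genes (Il6st, Lifr, Osmr, Cntfr, Il6ra and Il31ra) and 3 ligand genes (Clcf1, Cntf and Lif). The rule picks them by name as members of the family and uses no measured level, although the family was selected with earlier results of these data known. All 9 were found among the 41388 genes of the count tables. Dorsal root ganglia hold the cell bodies of sensory neurons. The ganglia came from C57BL/6 embryos at 14.5 days, from spinal levels T11 to S1, and the cells were sorted by the fluorescence of a Ret-EGFP reporter. The genotype label writes this reporter as a transgene, Tg(Ret-EGFP)SJ, whereas the series text places EGFP in the Ret locus of heterozygotes, so whether both Ret alleles were intact is not known. All cells carried the reporter and there was no unsorted or Ret-negative population, so no level below can be called particular to Ret-positive cells. Library A pooled 100 ganglia of 5 embryos, library B 100 ganglia of 6 embryos and library D 80 ganglia of 4 embryos, with males and females in each pool, and these 3 libraries form 1 group. Each is a pool, so an SD below covers differences between pools and technical ones alike. Total counts were 20181558, 20355302 and 29061086.

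Most receptors of the family pair a ligand-specific subunit with gp130, the signalling subunit encoded by Il6st. Leukaemia inhibitory factor (Lif) and the cardiotrophins use the LIF receptor (Lifr) with gp130. Ciliary neurotrophic factor (Cntf) and cardiotrophin-like cytokine (Clcf1) first bind CNTFR-alpha (Cntfr), a receptor anchored in the membrane without a cytoplasmic tail, which joins LIFR and gp130. Interleukin 6 uses IL6RA with gp130, oncostatin M in mouse uses OSMR with gp130, and interleukin 31, a cytokine of itch, uses IL31RA with OSMR and without gp130. Bound receptors activate Janus kinases, which phosphorylate STAT factors, foremost STAT3, and STAT3 induces its own inhibitor SOCS3. In sensory neurons the family is known for effects on survival, on neuropeptide genes and on the response to axon injury.

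Of the family, LIFR was the abundant subunit. Lifr reached 113 TPM in library A, 106 TPM in B and 41.9 TPM in D, where TPM is the count per kilobase of gene length, scaled to the same sum in each library. Il6st stood at 13.0, 15.5 and 8.89 TPM and Cntfr at 10.4, 27.4 and 8.53 TPM. The other 3 receptor genes and all 3 ligand genes averaged below 1 TPM, and Il6ra and Clcf1 had no counts in any library. Thus 3 of 9 members (33.3%) reached a mean of 1 TPM, beside 33.6% of all genes in the tables and 55.5% of protein-coding genes, so the share as such does not set the family apart. All cells of a library were lysed together, so fewer cells with a transcript and less of it per cell cannot be told apart.

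**Figure D1:**
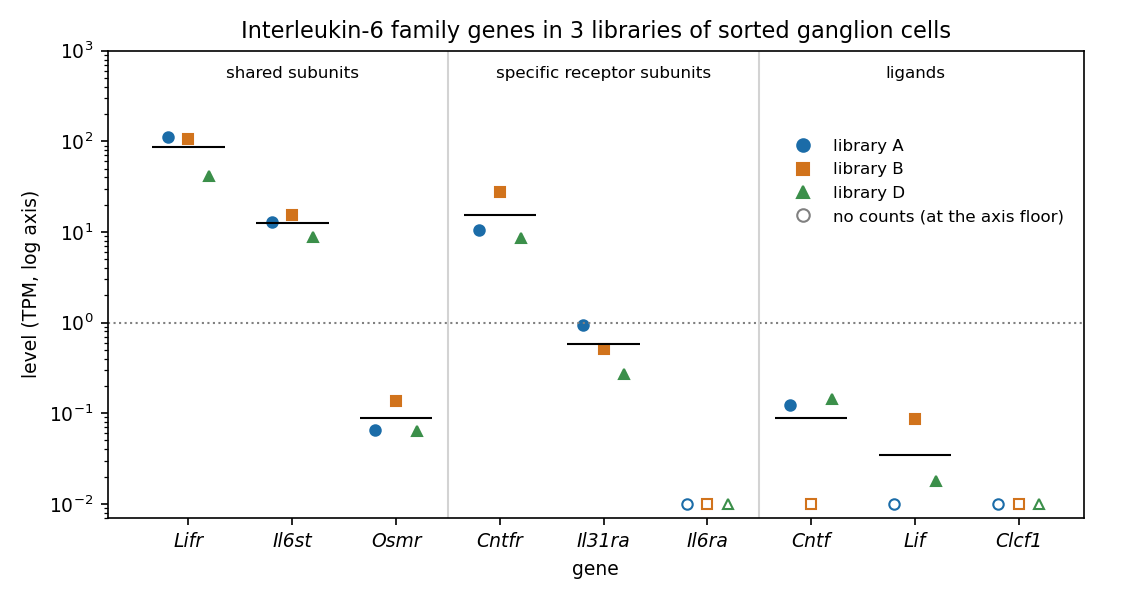
Level in TPM (log axis) of the 9 family genes, grouped as shared subunits, specific receptor subunits and ligands; each point is 1 library, black bars are means, the dotted line is 1 TPM, and open points at the foot of the axis had no counts. Lifr lies between 41.9 and 113 TPM, Il6st and Cntfr between 8.53 and 27.4 TPM, and every other gene lies below 1 TPM in every library.

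In 2 pairs of receptor members that neighbour each other in the genome, an expressed gene lay beside a scarce one. Lifr and Osmr are adjacent on chromosome 15, 254.6 kb apart and facing away from each other, and Il6st and Il31ra lie 12.7 kb apart on chromosome 13, transcribed towards each other. No other gene of the tables lies between the members of either pair. Cntfr likewise neighbours Il11ra1, the interleukin 11 receptor gene (2.9 kb between the deposited gene bounds), and Lif neighbours Osm, the oncostatin M gene (16.5 kb). The RefSeq start windows of Il11ra1 lie further off, beginning at 41760193 and 41762060 on chromosome 4, where Cntfr ends at 41697089. The first 2 pairs' start regions are shown because the partners differ so much in level: each window runs from 250 bases before to 50 bases after a RefSeq start, 5′ to 3′ on the gene's own strand (RefSeq, build GRCm38.p6), with CpG dinucleotides in capitals.

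Lifr, chr15:7129322-7129621, plus strand: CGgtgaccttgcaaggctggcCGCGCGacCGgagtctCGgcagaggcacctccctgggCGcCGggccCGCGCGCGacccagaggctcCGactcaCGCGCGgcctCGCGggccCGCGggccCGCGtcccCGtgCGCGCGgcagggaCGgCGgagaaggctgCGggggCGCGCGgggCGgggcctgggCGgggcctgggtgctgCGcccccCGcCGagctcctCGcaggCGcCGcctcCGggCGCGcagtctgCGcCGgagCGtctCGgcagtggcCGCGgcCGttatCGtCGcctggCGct

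Osmr, chr15:6874264-6874563, minus strand: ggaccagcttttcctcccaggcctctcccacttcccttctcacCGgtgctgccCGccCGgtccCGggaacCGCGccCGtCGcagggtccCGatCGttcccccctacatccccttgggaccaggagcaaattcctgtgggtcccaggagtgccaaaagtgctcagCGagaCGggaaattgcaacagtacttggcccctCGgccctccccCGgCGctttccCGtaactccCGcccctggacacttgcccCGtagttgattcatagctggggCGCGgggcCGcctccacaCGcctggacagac

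Il6st, chr13:112463820-112464119, plus strand: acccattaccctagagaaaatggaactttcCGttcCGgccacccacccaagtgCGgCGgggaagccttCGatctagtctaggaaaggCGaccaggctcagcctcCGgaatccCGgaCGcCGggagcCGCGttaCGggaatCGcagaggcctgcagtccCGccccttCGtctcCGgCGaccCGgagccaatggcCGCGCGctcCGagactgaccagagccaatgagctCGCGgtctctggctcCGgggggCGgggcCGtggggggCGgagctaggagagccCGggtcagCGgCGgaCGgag

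Il31ra, chr13:112580613-112580912, minus strand: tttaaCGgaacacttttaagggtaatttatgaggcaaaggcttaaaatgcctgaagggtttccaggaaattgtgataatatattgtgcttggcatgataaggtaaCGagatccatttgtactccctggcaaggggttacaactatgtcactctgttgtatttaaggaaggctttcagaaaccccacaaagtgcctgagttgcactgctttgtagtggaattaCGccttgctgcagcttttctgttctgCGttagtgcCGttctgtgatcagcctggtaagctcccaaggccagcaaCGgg

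The Lifr window holds 53 CpG dinucleotides, more than 99.5% of the 32851 windows of the promoter table, and a second Lifr start holds 4. The Osmr window holds 22, that of Il6st 33 and that of Il31ra 6. Windows of genes at or above 1 TPM had a median of 20 CpG and those of genes below it a median of 4, so the scarce Osmr carried a window as rich in CpG as a typical expressed gene. Il6ra, without a single count, had 25. Of 6 Cntfr windows, which overlap in part, 3 hold 45 to 47 CpG and the others 26, 11 and 3. Among the 9 members, 8 had at least 1 window, 14 in all, and Clcf1 had none in the table. The STAT-binding motif TTCNNNGAA, which reads the same on both strands, occurred in 1 of these 14 windows, that of Il31ra, against 8.30% of all windows. These matches describe the letters of the windows only.

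Among the shared subunits, Lifr (ENSMUSG00000054263, chromosome 15, 7129559 to 7197489, plus strand, GRCm38.p2, 22 exon blocks) had 8858, 8741 and 5603 counts, a mean of 87.1 ± 39.3 TPM (SD, n = 3). It ranked 1846 among all 41388 genes. Il6st (ENSMUSG00000021756, chromosome 13, 112464070 to 112510086, plus strand, 20 exon blocks), the gp130 gene, had 1092, 1371 and 1277 counts, a mean of 12.5 ± 3.34 TPM. It ranked 6507. Lifr exceeded Il6st in all 3 libraries, 6.55-fold on average (log2 ratio 2.71 ± 0.45), and the gap was several times the spread between libraries. The two-sided exact sign-flip permutation test gave p = 0.25, the smallest that 3 libraries allow (adjusted over the 6 pairs of members compared, 0.3). No ratio over 3 libraries can pass 0.05 in this test.

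Osmr (ENSMUSG00000022146, chromosome 15, 6813577 to 6874969, minus strand), which signals for oncostatin M and interleukin 31, was near the limit of detection. Over a gene of 12113 bases its counts were 6, 13 and 10, which is 0.0653, 0.135 and 0.0638 TPM. The exact 95% Poisson intervals for these levels ran from 0.0240 to 0.142, from 0.0718 to 0.230 and from 0.0306 to 0.117 TPM and overlap one another. Reads carried no molecular identifiers, so such intervals cover counting error only.

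Of the specific receptor subunits, Cntfr (ENSMUSG00000028444, chromosome 4, 41657498 to 41697089, minus strand) was expressed in every library but unevenly. Its counts were 220, 606 and 307, a mean of 15.4 ± 10.4 TPM, with library B high and A and D close to each other. Without B the mean was 9.48 TPM. Cntfr lay at about the level of Il6st (log2 ratio Cntfr/Il6st 0.15 ± 0.59, exact p = 1), below it in A (-0.32) and D (-0.06) and above it only in B (0.82). This balance rests on the length correction, since the Cntfr model has 2782 bases and that of Il6st 11099. As CPM, the count scaled to the library total without regard to length, the log2 ratio was -1.85. Lifr exceeded Cntfr 5.92-fold on average (log2 2.56 ± 0.78, 3 of 3 libraries, exact p = 0.25).

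Il31ra (ENSMUSG00000050377, chromosome 13, 112522810 to 112580662, minus strand), the specific subunit for interleukin 31, was scarce but present, with 26, 15 and 13 counts. Its level was 0.936, 0.514 and 0.274 TPM in A, B and D, so it exceeded that of Osmr in each library although both are needed for that receptor. The size of this gap rests on the length correction (3665 bases against 12113 for Osmr). In counts the genes were close in B and D, where Osmr had 13 and 10. Il6st stood 23.9-fold above its neighbour Il31ra (log2 4.58 ± 0.68, 3 of 3 libraries, exact p = 0.25).

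Il6ra (ENSMUSG00000027947, chromosome 3, 89869324 to 89913162, minus strand), the specific interleukin 6 receptor, had 0 counts in A, B and D over 3343 bases. A count of 0 allows up to 3 counts, or 0.118, 0.113 and 0.0693 TPM. Against that floor of 3 counts per library, Il6st was at least 109.6-fold higher and Lifr at least 604-fold higher than Il6ra in every library. Genes without any count are common in the tables (40.2% of all genes and 20.5% of protein-coding genes), and 2 of 9 members (22.2%) were among them. No exon of Il6ra overlaps another gene of the tables.

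The ligand genes were at or near 0. Clcf1 (ENSMUSG00000040663, chromosome 19, 4214238 to 4223490, plus strand) had 0 counts in all 3 libraries, which allows up to 0.107, 0.101 and 0.0624 TPM, and its exons too overlap no other gene. Lif (ENSMUSG00000034394, chromosome 11, 4257557 to 4272514, plus strand) had 0, 3 and 1 counts, at most 0.0866 TPM in a library. Cntf (ENSMUSG00000079415, chromosome 19, 12763660 to 12765632, minus strand) had 1, 0 and 2 counts.

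The value of Cntf measures only part of the gene. Of its 1073 exon bases, 847 (78.9%) are also exon of Zfp91, a zinc finger gene on the same strand with 631, 578 and 888 counts. In these tables reads on shared bases were not counted: all 738 genes whose every exon base is shared with another gene had 0 counts, among them all 238 that share only with genes of the opposite strand. Cntf was thus read over 226 bases at most. With that length its mean was 0.408 TPM in place of 0.0890, still below 1 TPM, and reads that cross into the shared part may be missing from either value. None of the other 8 members shares an exon base with another gene.

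Set by receptor complex, the scarcest subunit differed between ligands. For the LIF receptor it was Il6st in every library (13.0, 15.5 and 8.89 TPM). For the three-part CNTF receptor it was Cntfr in A and D (10.4 and 8.53 TPM) and Il6st in B (15.5 TPM), so all of its subunits exceeded 8 TPM in each library. For the interleukin 11 receptor it was Il11ra1 (3.89, 3.40 and 3.25 TPM). Its near-identical copy Il11ra2 had no counts, so reads that match both may be missing from either. The scarcest subunit was Il27ra for interleukin 27 (0.894, 0.425 and 0.262 TPM), Osmr for oncostatin M and interleukin 31 (0.0638 to 0.135 TPM) and Il6ra for interleukin 6 (no counts). These are RNA levels of a pooled population and do not show which subunits met in the same cell.

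Most other ligand genes of the family were below 1 TPM too. Of 9 further genes of ligands and their partners, only Ebi3 reached 1 TPM, and Il27, Osm and Il31 had no counts. Ebi3, a soluble subunit shared by interleukins 27 and 35, stood at 8.23, 12.4 and 14.0 TPM. It shares 270 of its 1170 exon bases with the opposite-strand gene Gm16712, and reads there were not counted. Il6 had 2, 3 and 1 counts. Ctf1, the cardiotrophin 1 gene, averaged 0.253 TPM.

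The receptors were next set among all 37 type I and II cytokine receptor genes of the lists used here, the structural class to which the family belongs. Lifr ranked 2 in each library, behind Ifngr2, a chain of the interferon-gamma receptor (120, 119 and 50.7 TPM). Cntfr ranked 5 and Il6st 6 by mean, but Cntfr ranked 8, 5 and 6 in A, B and D and Il6st 6, 8 and 5, so that Il6st stood above Cntfr in A and D. Above both by mean was Ifnar1 of the type I interferon receptor (28.0, 29.3 and 11.1 TPM). Ifngr1, the other interferon-gamma receptor chain, ranked 3 (29.9 TPM on average). Il31ra ranked 18 and Osmr 26, and Il6ra shared the last places with Il11ra2, Il12rb1 and Il23r, which all had no counts. Of the 28 receptors outside the family, 13 reached 1 TPM (their list had a median level of 0.422 ± 0.131 TPM), against 3 of 6 receptor members (50%). The median of all genes was 0.0511 TPM and that of genes at or above 1 TPM was 10.6 TPM.

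**Figure D2:**
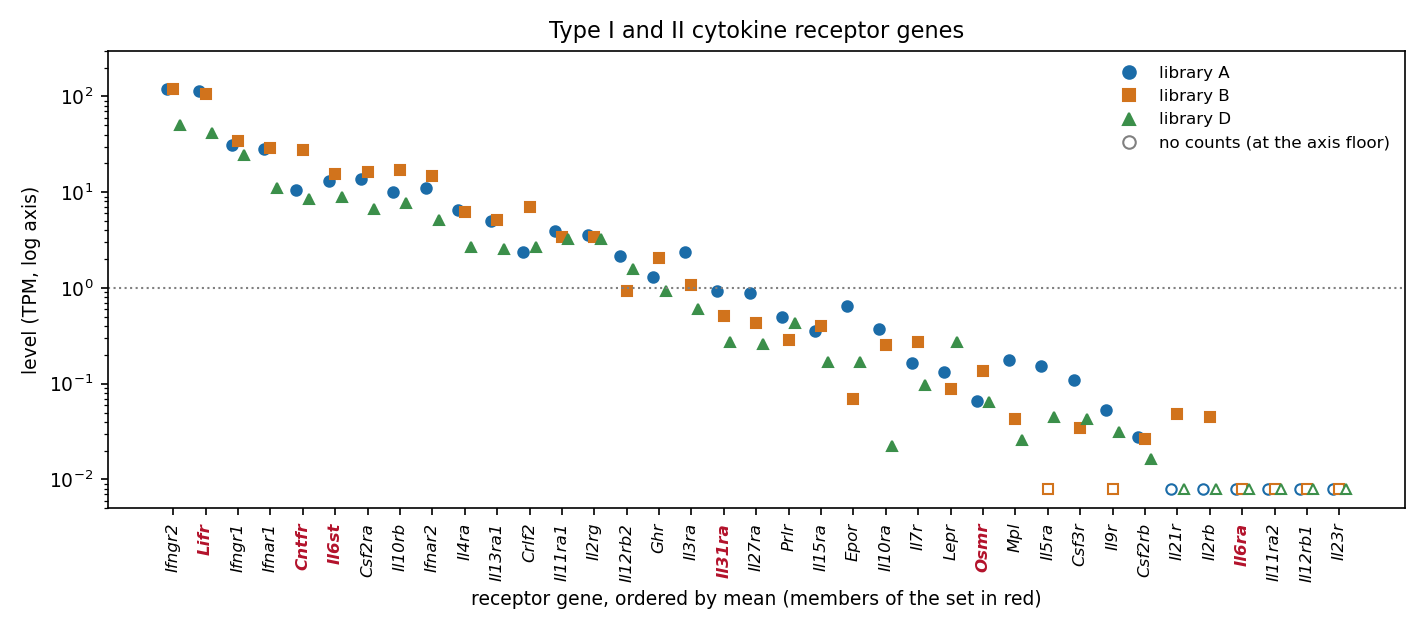
Level in TPM (log axis) of 37 type I and II cytokine receptor genes ordered by mean, family members with red names; each point is 1 library, the dotted line is 1 TPM, and open points at the foot of the axis had no counts. Lifr holds rank 2 in every library, Cntfr and Il6st hold ranks 5 and 6 by mean, and Il31ra, Osmr and Il6ra lie below 1 TPM.

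Ret, the gene whose reporter was used for sorting, gave a reference level: Lifr did not differ from it beyond the spread, and Il6st and Cntfr were lower in all 3 libraries. The Ret receptor serves the GDNF family of neurotrophic factors, and its gene had 51.6, 72.0 and 56.0 TPM. Lifr was above Ret in A and B and below it in D (log2 ratio 0.43 ± 0.78, exact p = 0.5). Il6st was 4.88-fold below Ret (log2 -2.29 ± 0.34) and Cntfr 4.40-fold below it (log2 -2.14 ± 0.68), both in 3 of 3 libraries with exact p = 0.25 (0.357 adjusted over 10 such ratios). Il6st and Ntrk3, the NT-3 receptor gene, were closer to each other than the spread over the libraries (log2 -0.09 ± 0.43, exact p = 0.75), as did Cntfr and Ntrk3 (0.06 ± 0.96, exact p = 1).

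Below the receptors, Jak1 stood far above the other Janus kinases, and Stat3 led the STAT genes in every library by a smaller margin. Jak1, the Janus kinase that gp130 depends on most, had 163, 120 and 87.9 TPM. It exceeded Jak2 31.6-fold (log2 4.98 ± 0.30) and Tyk2 19.8-fold (log2 4.31 ± 0.49), in 3 of 3 libraries each (exact p = 0.25). Jak3, a kinase of lymphocyte receptors, stayed at 0.312 ± 0.104 TPM, so 3 of 4 kinases passed 1 TPM, beside 55.5% of all protein-coding genes. Jak1 also stood 9.88-fold above Il6st (log2 Il6st/Jak1 -3.31 ± 0.35).

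Of 7 STAT genes, 5 reached 1 TPM, beside 55.5% of all protein-coding genes. Stat3 had 59.7, 62.4 and 29.4 TPM. Stat2, a factor of interferon signalling, followed with 28.8, 30.1 and 12.0 TPM, while Stat4 and Stat5a averaged below 1 TPM.

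Of the inhibitors, phosphatases and adapters of the pathway, 17 of 19 were at or above 1 TPM, beside 55.5% of all protein-coding genes. Their median level was 12.4 ± 3.29 TPM. By mean the adapter gene Grb2 (89.6, 109 and 96.4 TPM) was highest, followed by Pias1, a gene of an inhibitor of STAT factors (94.5, 67.7 and 61.3 TPM, above Grb2 in A), and the phosphatase gene Ptpn2 (28.7 ± 3.06 TPM). Socs1 and Ptpn6 averaged below 1 TPM, although Ptpn6 had 1.46 TPM in A. Socs3, the inhibitor that binds gp130, varied from 12.1 TPM in A and 19.4 in B to 4.09 in D. Both proteases that can shed receptor ectodomains were expressed, Adam10 at 64.5 ± 6.10 TPM and Adam17 at 8.11 ± 3.90 TPM.

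**Figure D3:**
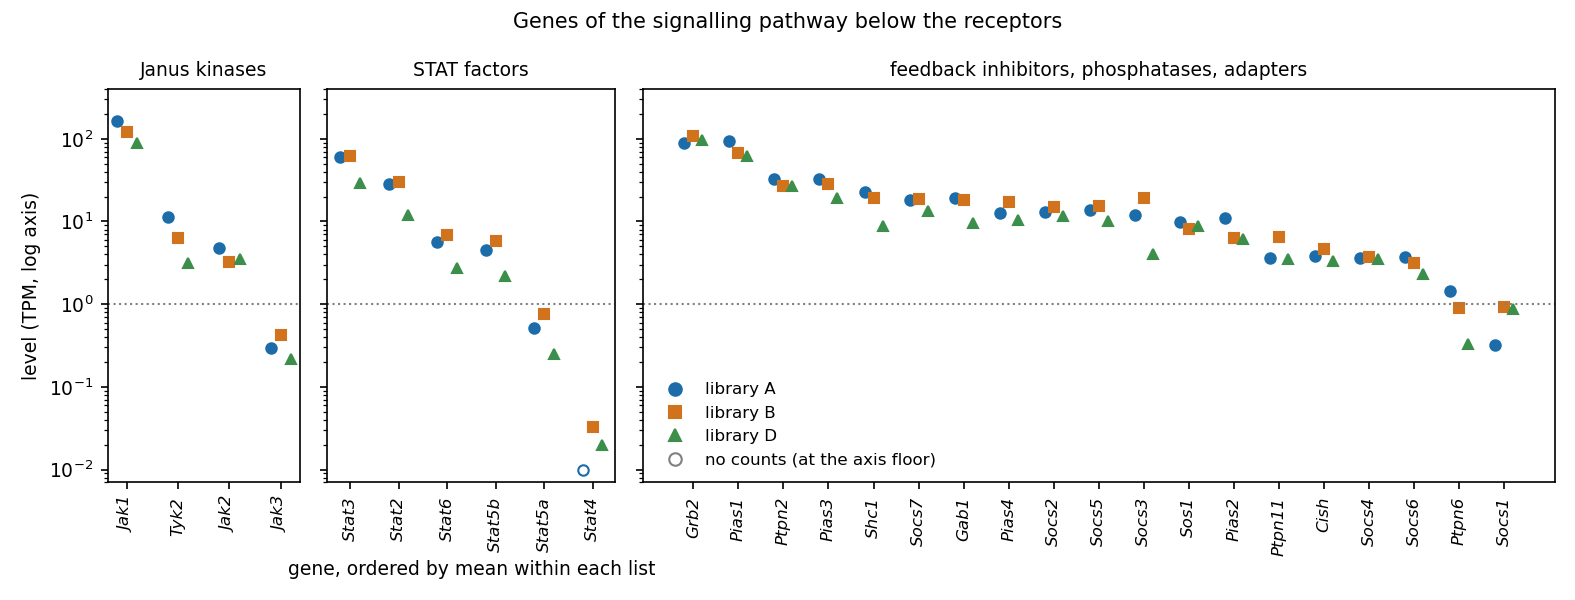
Level in TPM (log axis) of the Janus kinases, 6 of the 7 STAT factors and the inhibitors, phosphatases and adapters, ordered by mean within each list; each point is 1 library, the dotted line is 1 TPM, and the open point had no counts. Jak1 (87.9 to 163 TPM) and Stat3 (29.4 to 62.4 TPM) lead their lists in every library, and Grb2 and Pias1 lead the third by mean.

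Genes that STAT3 is known to induce were mixed, 16 of 20 being at or above 1 TPM, beside 55.5% of all protein-coding genes. Their median level was 3.57 ± 1.46 TPM. Gal, which encodes the neuropeptide galanin, was the highest at 1199, 1213 and 1585 TPM, then Myc (147 ± 21.7 TPM) and Fos (71.1 ± 21.6 TPM). Reg3b, a secreted protein gene induced in injured sensory neurons, stood at 70.6, 66.7 and 74.8 TPM. Sprr1a, another injury gene, had 0, 0 and 1 counts, and Gfap, Lcn2 and Cebpb were below 1 TPM too. These genes have other inducers, and their levels do not measure STAT3 activity.

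In adult ganglia Osmr and Il31ra mark itch neurons together with a small set of other genes. Of the 6 that were listed, 5 averaged above 1 TPM at this stage and 3 above 5 TPM. Of all protein-coding genes, 55.5% reached 1 TPM, so so short a list does not show that these neurons were present. Nts, a neuropeptide gene, had 25.5, 44.6 and 45.8 TPM and Sst, encoding somatostatin, 6.17, 21.4 and 5.81 TPM. Nppb, the natriuretic peptide of itch neurons, had 5.24, 3.22 and 8.61 TPM. Htr1f and Npy2r lay between 0.894 and 1.65 TPM, and the leukotriene receptor gene Cysltr2 had no counts. The peptide genes Nts, Sst and Nppb stood above Il31ra and Osmr in every library.

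The 3 libraries were then compared, to see how far the family's levels held from pool to pool. On the TPM scale the median of 13530 tested genes lay 0.33 lower (log2) in D than in the others, and 0.20 and 0.15 higher in A and B. Differences are therefore given as log2 CPM after TMM scaling, with which these medians lay within 0.02 of 0. Lifr was lower in D than in the mean of A and B by 1.06 on this scale (log2 difference -1.06), and 5.85% of tested genes lay lower still. Il6st differed by -0.34 in D. Cntfr was higher in B by 1.38, and 98.8% of tested genes lay below that.

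None of these passed the test of variation between libraries. In edgeR's goodness-of-fit test, 24 of 13530 genes (0.177%) were more variable than the trend at their abundance after Benjamini-Hochberg adjustment, and 0 of the 3 members tested were among them. The adjusted p was 0.736 for Cntfr, 0.936 for Lifr and 1.00 for Il6st. Before adjustment, Cntfr was the 1 of these 3 with an edgeR p under 0.05, as were 827 genes in all. DESeq2 marked 0 of 7 members with counts as dispersion outliers. These results do not show that the pools were alike. The remaining members fell below the filter of this test. With no filter beyond 1 count in all, edgeR tested 7 members, Il31ra and Osmr among them, and called 0.

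Marker levels of other cell types were set beside those of Cntfr. In library B the 8 mesenchyme and pericyte markers summed to 70.9 TPM, against 19.2 in A and 19.4 in D, and Col1a1 was called by the edgeR test (adjusted p = 5.8e-05, or 0.99 without B; 28.4 TPM in B against 3.68 and 2.32). Of those 8 markers, 6 reached 1 TPM, and Twist1 had no counts in A. On the TMM scale, the 7 of these markers tested had medians of -0.75, 1.05 and -0.81 in A, B and D. The values of Cntfr were -0.73, 1.38 and -0.65. In A 6 of the 7 lay lower than in the other libraries, in B 1 (Pdgfra, -0.06) and in D 5. Pdgfra (0.32) lay higher in A, and Dcn (0.79) and Lum (1.04) lay higher in D. Of all 13530 tested genes, 6583, 6672 and 6848 lay lower in A, B and D. The 11 glial markers summed to 614, 993 and 1012 TPM in A, B and D. All 10 sensory neuron markers were expressed, with sums of 46043, 41080 and 41632 TPM. The macrophage, endothelial and sympathetic lists were low. At or above 1 TPM were 4 of 8 macrophage (sums of 9.01 to 21.8 TPM), 1 of 6 endothelial (3.12 to 4.76 TPM) and 2 of 5 sympathetic markers (2.12 to 7.91 TPM). Of the skeletal muscle markers 3 of 6 reached 1 TPM, with Myog at 0 counts. Their sums of 35.8 to 46.7 TPM lay above the mesenchyme sums in A and D. The part of these cells in the level of Cntfr was not tested.

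Lists of the pathway lay on either side in D. All 6 STAT genes tested lay lower in D than in the other libraries (median -0.85), as did 10 of 13 other type I and II receptors (median -0.48), beside 50.6% of all tested genes and a median of -0.01. Of the STAT3 target genes 6 of 15 lay lower (median 0.22), and Il11ra1 (0.17) and Ebi3 (0.79) lay higher. Among the markers, 2 of 2 sympathetic (median -1.54), 2 of 2 endothelial (median -0.42) and 5 of 7 mesenchyme genes tested (median -0.81) lay lower in D, against 1 of 10 sensory neuron (median 0.43) and 2 of 8 glial genes (median 0.07). The part of these cells in the levels of Lifr and the STAT genes was not tested. No STAT, Janus kinase or other receptor gene passed the edgeR test. Of all 107 listed genes tested, Junb, an early response gene, and Col1a1 passed it. Junb was high in B (33, 218 and 34 counts, edgeR adjusted p = 0.0223), and lost the call when A, B or D was left out (adjusted p = 0.091, 0.99 and 0.053). Socs3 was also highest in B and lowest in D but, unlike Junb, lay above the other libraries' mean in A (0.26 against -1.13), and it did not pass (edgeR adjusted p = 0.635).

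**Figure D4:**
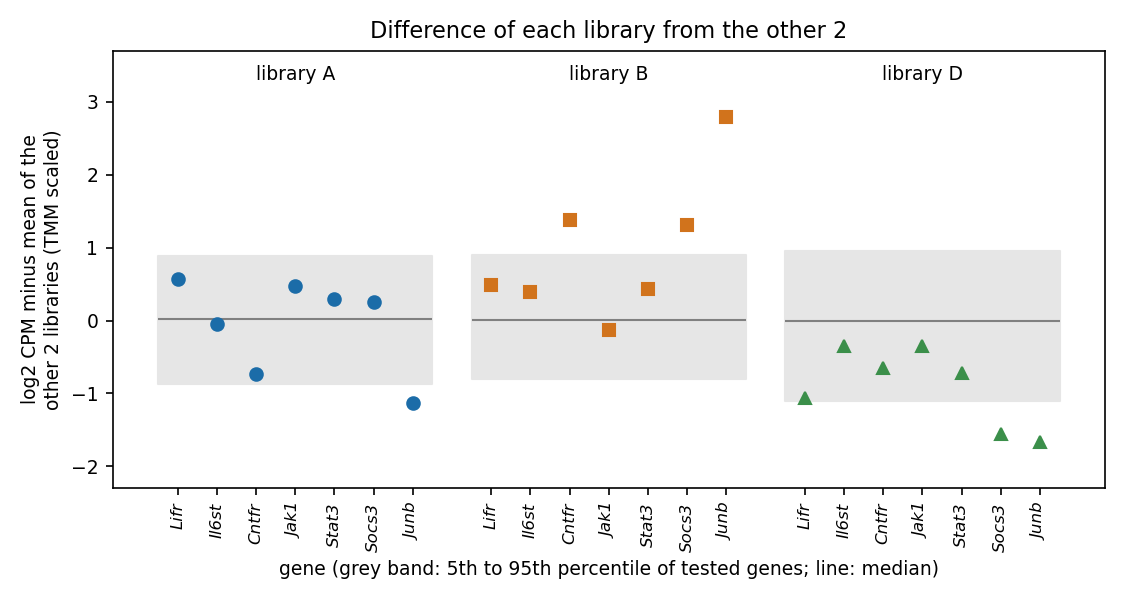
TMM-scaled log2 CPM of 3 members and 4 pathway genes in each library minus the mean of the other libraries; grey bands span the 5th to 95th percentile of tested genes and grey lines their median. Cntfr (1.38), Socs3 (1.31) and Junb (2.80) lie above the band in B, and Socs3 (-1.56) and Junb (-1.67) below it in D, with Junb below it in A too (-1.13), while Lifr (-1.06) lies just inside its lower edge.

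The genes whose TPM was most like that of Lifr over the 3 libraries were Flywch1, Snn and Kctd20, with root mean square differences of 0.067, 0.092 and 0.097 on the log2(TPM + 0.1) scale. They were the only 3 of 12425 genes within 0.1. With 3 libraries this is a likeness of level and order only.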

How the data were processed

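Counts per Ensembl gene were deposited by the authors, 1 table per library, beside CPM, RPKM, exon positions and the length of each gene. The submitters' processing notes name Subread, featureCounts 1.4.5 and GRCm38.p2, and the settings used are not given there. The deposited CPM is the count scaled to the library total and the deposited RPKM is that CPM per kilobase. Per the labels' protocols, 10 ng of RNA was amplified with a SMARTer kit and 12 PCR cycles. TPM was computed from counts and deposited lengths. Symbols came from GENCODE M21 (40254 of 41388 genes matched). Variation between libraries was modelled in R 4.3.3 by edgeR 4.0.16, with TMM, filterByExpr, an intercept-only fit with trended dispersion, and deviance goodness of fit with 2 degrees of freedom, Benjamini-Hochberg adjusted at 0.05. The quasi-likelihood test needs a contrast. The script was tested on simulated data. DESeq2 1.42.0, numpy 2.4.6, pandas 2.3.3, scipy 1.17.1 and matplotlib 3.10.9 were also used. Ratios were taken within libraries. No protein sequences were used here, and the values of some listed genes are not reported here.

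All 165 genes of 20 lists were found. The members and lists were chosen with earlier results of these data known. Named are the members, the 3 highest genes of each pathway list, all of lists of 4 or fewer, those below 1 TPM where 5 or fewer, listed genes past the edgeR test and the 3 genes most like the highest member. Socs3, Reg3b, the ranked receptors and some ligands were named after their values were seen. Alternatives were other thresholds, thinning to the smallest library, other lengths, scalings, filters and dispersions, and leaving out each library.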

Additional observations from a re-analysis of the deposited data

How the results depend on the processing

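The number of members at or above 1 TPM was 3 under thinning, own exon bases and each library left out, 4 at a threshold of 0.5 TPM and 3 at 5 TPM. Of the 16 log2 ratios, 3 changed sign. Cntfr/Il6st went from 0.15 to -1.85 as CPM and to -0.19 without B. Without one library at a time it ranged from -0.19 to 0.38. Il6st/Ntrk3 was 1.00 as CPM and -0.30 to 0.13 with a library left out (0.13 without D), and Cntfr/Ntrk3 was -0.85 as CPM and -0.49 to 0.38 (-0.49 without B). The other 13 ratios kept their direction. The count of edgeR calls over all genes was 55 with each library's trend in gene length removed, an alternative chosen after seeing the data, 32 with a common dispersion, 35 with no filter and 2 to 27 with a library left out (7 without A, 2 without B, 27 without D). No member was called under any of these settings. Junb missed the threshold with any library left out and Col1a1 without B (adjusted p = 0.99). At 5 TPM the STAT3 target list fell from 16 to 9 genes, the other receptors from 13 to 7 and the itch neuron genes from 5 to 3. The cause of these changes was not tested. Depth limits Osmr, Il31ra and the ligands, whose counts were 26 or fewer per library.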
